A study of Mus musculus with 4 samples.

Results

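The unfolded protein response and the chaperones of the endoplasmic reticulum (ER) were followed through 31 genes, which the platform annotation pairs with 74 single-gene probe sets among the 45101 of each array. The genes were listed by function, as ER chaperones, genes of ER-associated degradation and genes of the stress branches, by a rule that uses no measured value, although the list was drawn up with earlier results of these data known. RNA labelled as aorta was hybridised to 4 Affymetrix arrays, 1 for each group, from Ath29 congenic mice on Western diet, apoE-/- mice of C57BL/6 strain (B6) on Western diet, Ath29 congenic mice on chow and B6 apoE-/- mice on chow. Ath29 mice are labelled as resistant to atherosclerosis and titled Ch9, with the extent of their congenic segment not stated in the labels, B6 mice are labelled as having atherosclerosis, and the labels give the apoE-/- genotype for B6 mice only. All mice were weaned onto chow at 3 weeks of age, and those on Western diet changed to it at 4 weeks and ate it for 2 weeks. The labels do not say how many mice gave the RNA of an array, so no difference below has a replicate and only the additive fit at the end has p-values. Of the 74 probe sets, 58 lay above the filter for low signal (a mean intensity of 27.4), and they cover 30 of the 31 genes, among 11718 genes compared in all. The gene below it was Sdf2l1, part of an ER chaperone complex, which read 26.6 in Ath29 and 23.0 in B6 mice on Western diet, and 31.2 in Ath29 and 24.9 in B6 mice on chow.

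The label of the tissue was checked first, because the extraction protocol names liver. The smooth muscle actin gene Acta2 read 10674 in Ath29 and 10634 in B6 mice on Western diet, and 10395 in Ath29 and 11269 in B6 mice on chow. Of 20 hepatocyte markers, 6 lay above the filter. Albumin (Alb), the defining one, read between 33.7 and 64.0, and Apoa2, Apoh, Fga and Serpina1b between 24.7 and 94.0. Cyp2e1 went the other way, with 2867 in Ath29 and 4852 in B6 mice on Western diet, and 4560 in Ath29 and 2541 in B6 mice on chow. The arrays also held fat and, in B6 mice on Western diet, heart muscle signal, given after the gene results with the genes that share its order. A tissue piece with fewer cells of a type and one with less RNA per cell cannot be told apart in such samples.

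Proteins that enter the ER are folded by chaperones such as BiP and by disulfide isomerases, and proteins that fail to fold are returned to the cytosol and degraded. When unfolded proteins accumulate, 3 sensors of the ER membrane respond. ATF6 is cut to release a transcription factor that raises chaperone genes, IRE1 splices Xbp1 mRNA so that it encodes a factor for folding and degradation genes, and PERK slows translation while it allows synthesis of ATF4 and CHOP. In atherosclerosis this response has been studied most in macrophages and smooth muscle cells loaded with cholesterol. Below, each gene was assigned to the branch it is usually placed in, although many targets are shared.

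The promoter table of RefSeq (build GRCm38.p6, 250 bases before to 50 after each start site) held 27 of the 31 genes. Atf6, Derl1, Hyou1 and Manf were not matched. The ER stress element bound through ATF6, searched as CCAAT, then 9 bases, then CCACG on either strand, was found for 8 of the 27 genes (Calr, Canx, Creld2, Dnajc3, Hsp90b1, Hspa5, Pdia6 and Syvn1), against 0.137% of the 27025 genes in the table. The element read by ATF4 with C/EBP factors, searched as TGATGNAA on either strand, was found for 4 of the 27 (Asns, Chac1, Herpud1 and Trib3), against 4.51% of all genes. The match of Trib3 lay after its start site. No gene held both, and the element TGACGTGG, linked to XBP1 and ATF6, was found for 0 of the 27 genes and 0.714% of all. A match describes letters, not binding. The stretches below are those of the genes that differed most between the arrays and of the 2 main ER chaperones, 5′ to 3′ on the gene's strand, with the matched letters in capitals and 40 bases on either side where the window before the start site allows. They lie at chr6:7693210-7693272 (- strand) for Asns, chr2:119351009-119351096 (+ strand) for Chac1, chr8:84847035-84847133 (- strand) for Calr, chr12:17266451-17266549 (+ strand) for Pdia6, chr2:34771985-34772083 (+ strand) for Hspa5 and chr10:86705493-86705694 (- strand) for Hsp90b1. Hsp90b1 holds 2 copies of the ER stress element.
Asns: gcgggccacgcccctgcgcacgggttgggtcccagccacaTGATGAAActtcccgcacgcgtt
Chac1: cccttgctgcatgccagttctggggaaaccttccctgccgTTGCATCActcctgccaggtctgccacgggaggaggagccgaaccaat
Calr: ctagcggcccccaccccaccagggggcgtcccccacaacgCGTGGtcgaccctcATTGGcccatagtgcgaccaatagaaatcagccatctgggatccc
Pdia6: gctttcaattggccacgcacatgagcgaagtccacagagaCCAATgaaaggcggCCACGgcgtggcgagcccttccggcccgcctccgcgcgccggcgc
Hspa5: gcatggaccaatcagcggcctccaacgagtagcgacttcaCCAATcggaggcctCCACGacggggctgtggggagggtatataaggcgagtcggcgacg
Hsp90b1: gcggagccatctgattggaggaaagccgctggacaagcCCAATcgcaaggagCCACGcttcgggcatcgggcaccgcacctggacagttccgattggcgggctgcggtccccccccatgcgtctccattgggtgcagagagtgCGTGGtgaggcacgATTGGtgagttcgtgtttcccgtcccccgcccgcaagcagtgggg

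Intensities below are those of the brightest probe set of each gene once the medians of the arrays had been made equal, and the log2 differences are taken on them. Because the values of different probe sets are not on one scale, only the same probe set is compared across arrays. The plot of levels by array shows that most genes kept within a narrow range.

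**Figure D1:**
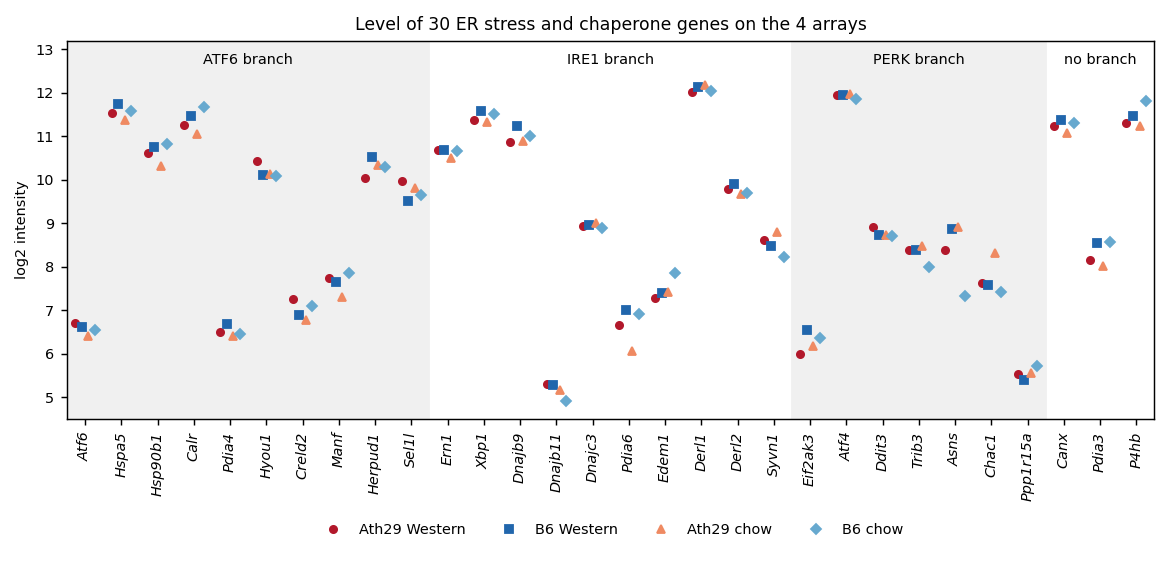
Log2 intensity (vertical axis) of the brightest probe set of 30 genes on 4 arrays, 1 array per group, with genes ordered by branch. Asns is low in B6 mice on chow, Chac1 is high and Pdia6 low in Ath29 mice on chow, and for most other genes the 4 symbols lie close together. Heights of different genes are not comparable.

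On their brightest probe sets, the sensors Atf6 and Ern1 varied less across the arrays than Eif2ak3. Atf6 read 105 in Ath29 and 98.4 in B6 mice on Western diet, and 84.9 in Ath29 and 93.6 in B6 mice on chow. Ern1, which encodes the kinase and nuclease IRE1, read 1649 in Ath29 and 1655 in B6 mice on Western diet, and 1451 in Ath29 and 1615 in B6 mice on chow. The highest array was 1.24-fold the lowest for Atf6 and 1.14-fold for Ern1. Dimmer probe sets of Ern1 did not show this. A dimmer Ern1 probe set read 29.1 in Ath29 and 33.3 in B6 mice on Western diet. On chow it read 37.6 in Ath29 and 44.6 in B6 mice. Another gave strain differences of 0.29 on Western diet and 0.48 on chow, where the brightest gave -0.01 and -0.16. Eif2ak3, the gene of PERK, read 64.1 in Ath29 and 93.5 in B6 mice on Western diet, a log2 difference of -0.55, and 72.5 in Ath29 and 81.8 in B6 mice on chow, a difference of -0.17. Its 2 B6 arrays lay above its 2 Ath29 arrays, and -0.55 was the lowest strain difference of any of the 30 genes on Western diet.

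By their brightest probe sets, the transcription factor genes of the response had small differences. Atf4 read 3932 in Ath29 and 3947 in B6 mice on Western diet, and 4051 in Ath29 and 3742 in B6 mice on chow, so that the highest array was 1.08-fold the lowest. Its second probe set did not show this, with 441 in Ath29 and 475 in B6 mice on Western diet, and 315 in Ath29 and 432 in B6 mice on chow, a strain difference of -0.46 on chow and a diet difference of 0.49 in Ath29 mice. Ddit3, which encodes the pro-apoptotic factor CHOP, read 481 in Ath29 and 428 in B6 mice on Western diet, and 424 in Ath29 and 421 in B6 mice on chow. Xbp1 read 2654 in Ath29 and 3063 in B6 mice on Western diet, and 2588 in Ath29 and 2904 in B6 mice on chow. On these probe sets the 3 genes had strain differences between -0.21 and 0.17 and diet differences between -0.04 and 0.18. A dimmer Xbp1 probe set read 150 in Ath29 and 220 in B6 mice on Western diet, and 114 in Ath29 and 240 in B6 mice on chow, strain differences of -0.55 and -1.07, while the other 2 dimmer ones lay between -0.19 and 0.10. Which part of the transcript, spliced or not, each probe set reads was not analysed here. ATF4 is controlled mainly by translation, ATF6 by cutting of its protein, and IRE1 acts by splicing Xbp1 mRNA, so mRNA levels do not measure their activity.

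Among the chaperones, Hspa5 encodes BiP, the abundant ER chaperone whose rise is the usual sign of ER stress. It read 2983 in Ath29 and 3431 in B6 mice on Western diet, and 2665 in Ath29 and 3074 in B6 mice on chow. Its strain differences were -0.20 on Western diet and -0.21 on chow, and its diet differences 0.16 in both strains. A second Hspa5 probe set gave -0.17 and -0.36 between strains on Western diet and chow, and the third -0.01 and 0.47. Hsp90b1, the ER member of the HSP90 family, read 1568 in Ath29 and 1740 in B6 mice on Western diet, and 1282 in Ath29 and 1808 in B6 mice on chow. Its strain difference on chow was -0.50, but its other probe set gave 0.10 there and -0.63 on Western diet.

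Calr encodes calreticulin, a calcium-binding chaperone of newly made glycoproteins. It read 2452 in Ath29 and 2854 in B6 mice on Western diet, and 2132 in Ath29 and 3274 in B6 mice on chow, 1.16-fold and 1.53-fold lower in Ath29 mice. With the arrays scaled by quantiles, by their 75th percentile or not at all, the Calr difference on chow was -0.55, -0.56 and -0.58, short of 1.5-fold. All 3 Calr probe sets showed this order of strains on both diets, with differences from -0.22 to -0.28 on Western diet and from -0.58 to -0.68 on chow. Canx, the membrane-bound relative calnexin, had strain differences of -0.14 on Western diet and -0.24 on chow, and a dim probe set of it gave 1.21 on chow.

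Manf and Hyou1 lie on chromosome 9. Manf, a secreted factor that binds BiP, read 214 in Ath29 and 200 in B6 mice on Western diet, and 159 in Ath29 and 230 in B6 mice on chow. Creld2, an ER stress protein that binds folding enzymes, read 154 in Ath29 and 118 in B6 mice on Western diet, and 109 in Ath29 and 136 in B6 mice on chow. Both genes were above their B6 value in Ath29 mice on Western diet and below it on chow, and Creld2 had the largest positive strain by diet difference of the 30 genes, 0.71. Hyou1, a large chaperone that helps BiP exchange its nucleotide, read 1375 in Ath29 and 1104 in B6 mice on Western diet, and 1115 in Ath29 and 1083 in B6 mice on chow. Its second probe set agreed in direction, with 0.58 on Western diet and 0.02 on chow. On their brightest probe sets, the BiP cochaperone genes Dnajb11 and Dnajc3 differed between strains by -0.02 to 0.25. Dimmer Dnajc3 probe sets gave 0.30 and -0.15 on Western diet, and 0.06 and -0.27 on chow. Dnajb9, a cochaperone induced through XBP1, differed by -0.38 on Western diet and -0.12 on chow.

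Disulfide isomerases form and reshuffle the disulfide bonds of secreted proteins such as collagens. All 4 measured genes were lower in Ath29 than in B6 mice on both diets, with medians of -0.26 on Western diet and -0.57 on chow. Pdia6 read 102 in Ath29 and 129 in B6 mice on Western diet, and 67.1 in Ath29 and 120 in B6 mice on chow, 1.26-fold and 1.79-fold lower. Pdia3, which works with calreticulin and calnexin, read 287 in Ath29 and 373 in B6 mice on Western diet, and 258 in Ath29 and 382 in B6 mice on chow. P4hb, which also serves as a subunit of collagen prolyl hydroxylase, read 2547 in Ath29 and 2826 in B6 mice on Western diet, and 2431 in Ath29 and 3620 in B6 mice on chow. On chow Pdia3 and P4hb were 1.48-fold and 1.49-fold lower, just short of 1.5-fold. Pdia4, at -0.18 and -0.05, was closest to 0. A dim second Pdia3 probe set gave 0.09 on Western diet and 0.18 on chow. The other isomerases had 1 probe set above the filter.

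Genes of ER-associated degradation went both ways. Sel1l, the adaptor of the HRD1 ubiquitin ligase, read 1010 in Ath29 and 728 in B6 mice on Western diet, and 898 in Ath29 and 810 in B6 mice on chow. Its dimmer probe sets gave strain differences of 0.26 and -0.26 on Western diet, and 0.16 and 0.10 on chow. Syvn1, the gene of HRD1 itself, read 395 in Ath29 and 356 in B6 mice on Western diet, and 444 in Ath29 and 298 in B6 mice on chow. That difference on chow, 0.58 or 1.49-fold, was not shared by its other probe set, at -0.07. Herpud1, a membrane adaptor of the same machinery, read 1055 in Ath29 and 1463 in B6 mice on Western diet, and 1302 in Ath29 and 1261 in B6 mice on chow. Its other probe set gave -0.38 between strains on Western diet and -0.46 on chow. Edem1, which hands misfolded glycoproteins to degradation, read 155 in Ath29 and 169 in B6 mice on Western diet. On chow it read 172 in Ath29 mice and 233, its highest value, in B6 mice. A dimmer Edem1 probe set was highest in Ath29 mice on Western diet. It gave strain differences of 0.27 on Western diet and 0.10 on chow, where the brightest gave -0.12 and -0.44. The derlin genes Derl1 and Derl2, which encode parts of the channel out of the ER, had strain differences from -0.12 to 0.13 on their brightest probe sets. Other probe sets reached further, with 0.36 on Western diet and -0.48 on chow for Derl2, and -0.48 on Western diet and 0.29 on chow for Derl1.

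The targets of the PERK branch held the largest differences. Asns, which makes asparagine, read 332 in Ath29 and 466 in B6 mice on Western diet, and 480 in Ath29 and 160 in B6 mice on chow. The B6 chow array stood below the other 3, which gave a strain difference on chow of 1.59, or 3.00-fold, and a diet difference in B6 mice of 1.54, or 2.92-fold, both resting on that array. The second Asns probe set kept the order, with 112 in Ath29 and 156 in B6 mice on Western diet, and 159 in Ath29 and 93.3 in B6 mice on chow, but gave less, 0.77 between strains on chow and 0.75 between diets in B6 mice. The brighter probe set carries a suffix that marks probes shared between transcripts, the other does not.

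Chac1, which degrades glutathione, stood out on another array. It read 198 in Ath29 and 192 in B6 mice on Western diet, and 321 in Ath29 and 172 in B6 mice on chow, so that Ath29 mice on chow were 1.87-fold above B6 mice on chow and Ath29 mice on Western diet were 1.62-fold below Ath29 mice on chow. Trib3, a pseudokinase that restrains CHOP and ATF4 signalling, read 334 in Ath29 and 336 in B6 mice on Western diet, and 358 in Ath29 and 254 in B6 mice on chow. Its second probe set was likewise lowest in B6 mice on chow and had 115 in Ath29 and 165 in B6 mice on Western diet. Ppp1r15a, the phosphatase subunit that reverses the action of PERK, differed from these and read 46.2 in Ath29 and 42.1 in B6 mice on Western diet, and 46.9 in Ath29 and 53.0 in B6 mice on chow.

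Counted over all 30 genes, 0 were above and 0 below B6 mice by 1.5-fold or more in Ath29 mice on Western diet, where 5.62% of all genes compared were higher and 7.89% lower by that fold. On chow 2 were higher, Asns and Chac1, and 2 lower, Pdia6 and, under the scaling used here, Calr, or 6.67% each way, against 7.28% higher and 9.63% lower of all genes. At least 2-fold either way were 0 of 30 on Western diet, against 2.88% of all genes, and 1 of 30 on chow (Asns), against 4.1%. None was at least 1.5-fold different in the same direction on both diets, against 0.435% of all genes higher and 0.828% lower. These shares lie near or below those of all genes. Of the 7158 genes whose probe set was brighter than the 75th percentile of all, 5.24% were higher and 7.70% lower on chow.

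By direction alone, 14 of the 30 genes were lower in Ath29 mice on both diets, 6 were higher on both and 10 went opposite ways. Of all genes compared, 26.7% were lower on both, 18.5% higher on both and 54.8% opposite. The median difference of the 30 genes was -0.12 on Western diet and -0.13 on chow, beside medians of 0.00 and -0.08 over all genes.

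**Figure D2:**
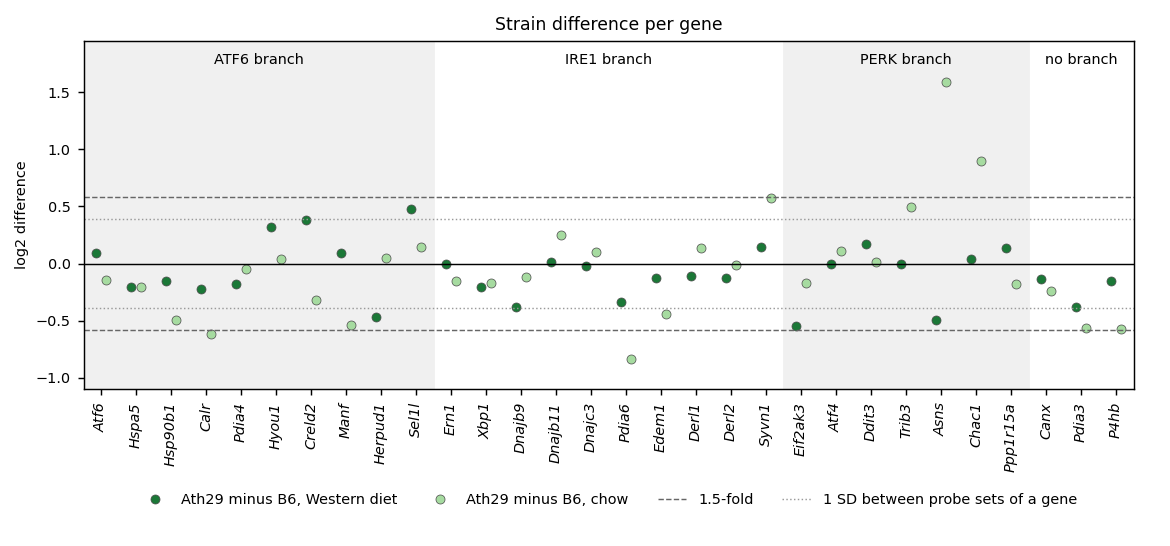
Log2 difference between Ath29 and B6 mice (vertical axis) of 30 genes on Western diet (dark) and on chow (light), 1 array per group. Dashed lines mark 1.5-fold and dotted lines 1 SD between probe sets of the same gene (0.39, that on chow); Asns, Chac1, Pdia6 and Calr pass the dashed lines on chow, and no gene does on Western diet.

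Strain medians of the 3 branches lay between -0.17 and 0.11. In the ATF6 branch of 10 genes, the median strain difference was -0.03 on Western diet and -0.17 on chow, with 5 and 7 genes below 0. The IRE1 branch, of which 10 of 11 genes were measured, had medians of -0.12 and -0.07, with 8 and 6 genes below 0. In the PERK branch of 7 genes the medians were -0.01 and 0.11, with 4 and 2 genes below 0. Of all genes compared, 49.3% were below 0 on Western diet and 58.9% on chow. The gap between the PERK and ATF6 medians was 0.02 on Western diet and 0.29 on chow. With a filter at the 75th percentile, which leaves 5 PERK genes, the PERK median on chow was 0.49, and without probe sets of shared probes it was -0.08. Averaged over all probe sets of a gene, the IRE1 median on Western diet was 0.02.

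Set by promoter letters, the 4 genes with the ATF4 element had strain differences on chow from 0.05 (Herpud1) to 1.59 (Asns), where 41.1% of all genes were above 0. The second Herpud1 probe set gave -0.46 there. On Western diet 3 of the 4 were below 0, against 49.3% of all genes. The 8 genes with the ER stress element ran from -0.84 (Pdia6) to 0.58 (Syvn1) on chow, with 6 below 0 and a median of -0.28, where 58.9% of all genes were below 0.

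The comparison of diets asks whether 2 weeks of Western diet moved the same genes within a strain. In Ath29 mice 1 of the 30 genes was at least 1.5-fold higher on Western diet, Pdia6 at 1.52-fold, and 1 lower, Chac1, against 6.03% higher and 4.35% lower of all genes. In B6 mice 1 was higher, Asns, and 0 lower, against 9.96% and 7.13% of all genes. At least 2-fold either way were 0 in Ath29 mice, against 2.18% of all genes, and 1 in B6 mice (Asns), against 5.28%. None was past 1.5-fold in the same direction in both strains, against 0.845% of all genes higher and 0.367% lower.

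**Figure D3:**
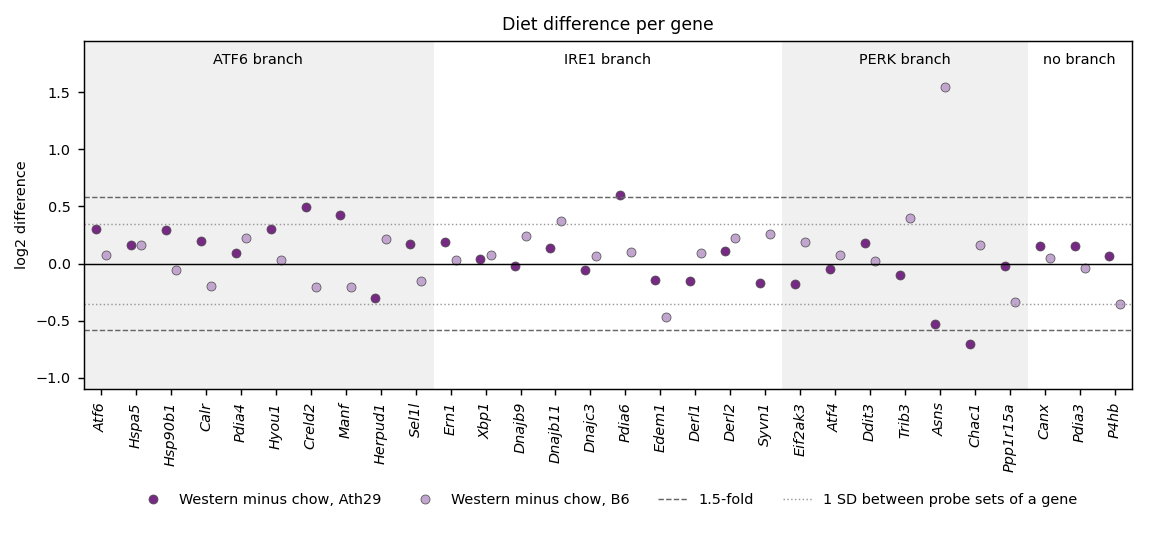
Log2 difference between Western diet and chow (vertical axis) of 30 genes in Ath29 mice (dark) and in B6 mice (light), 1 array per group. Dashed lines mark 1.5-fold and dotted lines 1 SD between probe sets of a gene; Asns in B6 mice, and Pdia6 and Chac1 in Ath29 mice, lie outside the dashed lines.

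In Ath29 mice 9 of the 10 ATF6 branch genes were above 0, against 56.2% of all genes, with a median diet difference of 0.25, led by Creld2 (0.50), Manf (0.43), Atf6 (0.31), Hyou1 (0.30) and Hsp90b1 (0.29), and Herpud1 at -0.30 was below 0. Other probe sets parted from these, at -0.40 for Hsp90b1, -0.63 for Sel1l, -0.17 for Hspa5 and 0.14 for Herpud1, and with all probe sets of a gene averaged the median was 0.16. In B6 mice 5 of the 10 were above 0, against 43.4% of all genes, and the median was -0.01. The PERK branch ran the other way, with 1 of 7 genes above 0 and a median of -0.10 in Ath29 mice, and 6 of 7 above 0 and a median of 0.16 in B6 mice. IRE1 branch medians were 0.01 in Ath29 and 0.10 in B6 mice. Above 0 were 5 of its 10 genes in Ath29 mice and 9 of 10 in B6 mice, against 56.2% and 43.4% of all genes. Medians over all genes were 0.04 in Ath29 and -0.06 in B6 mice.

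The strain by diet difference, the diet difference in Ath29 mice minus that in B6 mice, had a median of 0.30 over the ATF6 branch, -0.12 over the IRE1 branch and -0.37 over the PERK branch, beside 0.11 over all genes. Without the probe sets whose suffix (_s, _x or _a) marks shared probes, the IRE1 median was 0.10 and the PERK median -0.11. It was at least 2-fold in 1 of the 30 genes, Asns at -2.08, against 11.7% of all genes. It uses all 4 arrays once, so no second estimate of it exists.

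Genes of the same pathway outside the 31 were set beside them. Of 27 other genes of ER folding and degradation, 24 were measured, and 0 of them were at least 1.5-fold different between strains on Western diet and 2 were lower on chow, Edem2 (-0.74) and Erp44 (-0.61). Their median strain difference was 0.11 on Western diet and -0.21 on chow, and their median diet difference 0.15 in Ath29 and -0.14 in B6 mice. ER translocation genes, 26 of 28 measured, had strain medians of 0.03 on Western diet and -0.18 on chow. Below 0 on chow were 19 of 26, against 58.9% of all genes. On chow the other folding genes, the translocation genes and the ATF6 branch had medians of -0.21, -0.18 and -0.17.

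Of 27 other targets of ATF4, 16 were measured, with strain medians of 0.03 on Western diet and 0.05 on chow and diet medians of -0.02 in Ath29 and 0.11 in B6 mice. Cebpb, which pairs with ATF4, was the only one at least 1.5-fold higher in Ath29 mice on chow (0.82), against 7.28% of all genes. Between diets in B6 mice, where Asns was also higher, 4 of the 16 were at least 1.5-fold higher, against the 9.96% of all genes. They were Atf3 (0.77), an early stress factor, Psat1 (0.69), of serine synthesis, Cebpb (0.59) and Cebpg (0.59), and Mthfd2 was lower. Like the Asns value, these use the B6 chow array. Mthfd2, a mitochondrial folate enzyme, was the only gene of these pathway lists past 1.5-fold in the same direction in both estimates of strain or of diet. It read 689 in Ath29 and 564 in B6 mice on Western diet, and 1118 in Ath29 and 949 in B6 mice on chow, a diet difference of -0.70 in Ath29 and -0.75 in B6 mice.

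Among 17 other regulators of the response, Creb3l2, a membrane-bound factor related to ATF6, had the lowest strain difference on chow. It read 516 in Ath29 and 448 in B6 mice on Western diet, and 375 in Ath29 and 769 in B6 mice on chow. Cytosolic heat shock genes, 16 of 18 measured, had strain medians of -0.10 on Western diet and -0.17 on chow.

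**Figure D4:**
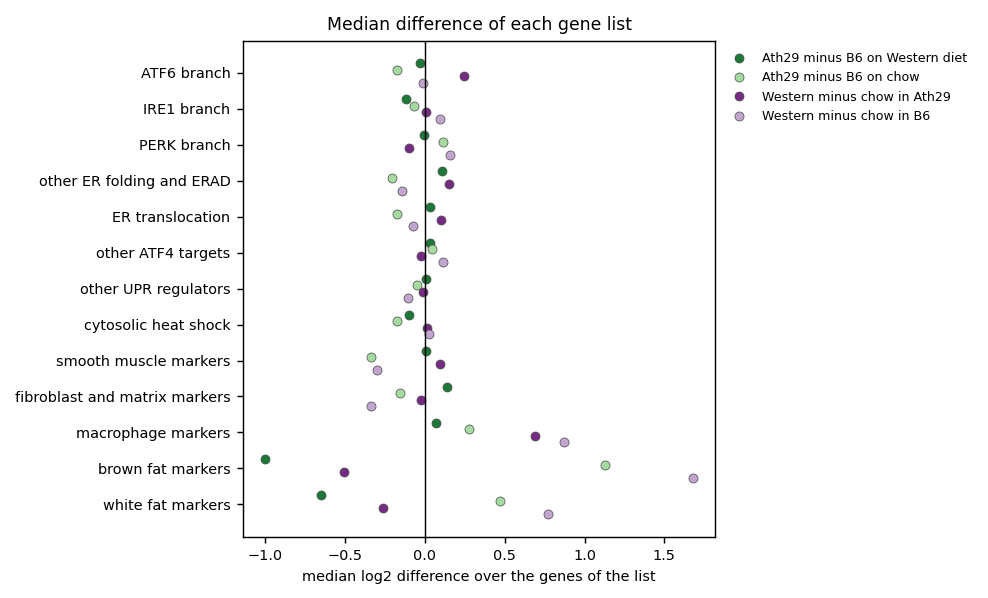
Median log2 difference (horizontal axis) of the genes of each list for the 4 differences, 1 array per group. The 3 branches and the other ER lists lie within 0.25 of 0 while the fat and macrophage markers reach past 0.5.

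Markers of other cells moved with several of these values. The strain difference on chow was below 0 for 19 of the 19 smooth muscle markers measured, of 20 listed, against 58.9% of all genes. Its median was -0.34, and on Western diet 0.01. Their summed intensity was 56504 in Ath29 and 54985 in B6 mice on Western diet, and 52156 in Ath29 and 62824 in B6 mice on chow. Fibroblast and matrix markers, whose collagens are folded with the help of P4hb, were below 0 for 16 of 17 genes on chow, with a median of -0.16, and summed to 61230 in Ath29 and 55060 in B6 mice on Western diet, and 60732 in Ath29 and 68751 in B6 mice on chow. Both sums were highest in B6 mice on chow, as were Calr, P4hb, Pdia3 and Manf. The part of these cells in the chaperone and isomerase values was not tested. The ratio of 3′ to middle signal of a control gene is a measure of RNA integrity and labelling. For actin it was 7.62 in Ath29 and 5.63 in B6 mice on Western diet. On chow the actin ratio was 10.2 in Ath29 and 5.10 in B6 mice, highest where Pdia6 and Calr were lowest. The Gapdh ratio did not follow this order, with 10.6 in Ath29 and 9.54 in B6 mice on Western diet. On chow it was 8.87 in Ath29 mice, its lowest value, and 9.23 in B6 mice. The ratio of 3′ to 5′ signal ran from 24.4 to 31.5 for actin and from 22.8 to 31.3 for Gapdh. Signal thus fell steeply away from the 3′ end on every array, a limit on all probe set values here. The part of RNA integrity and labelling was not tested either.

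Fat signal followed the order of Asns in part. Brown fat markers, 15 of 16 measured, summed to 20521 in Ath29 and 33948 in B6 mice on Western diet, and 27180 in Ath29 and 15138 in B6 mice on chow. White fat markers, 12 of 15 measured, summed to 34596 in Ath29 and 43308 in B6 mice on Western diet, and 39299 in Ath29 and 32326 in B6 mice on chow. B6 mice on chow were lowest for both sums and for Asns and Trib3, and the part of fat in these values was not tested. Ucp1, the defining brown fat gene, read 3756 in Ath29 and 5452 in B6 mice on Western diet, and 4465 in Ath29 and 3525 in B6 mice on chow, so brown fat RNA was present on every array.

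Macrophage markers, 16 of 20 measured, summed to 13403 in Ath29 and 13414 in B6 mice on Western diet, and 8152 in Ath29 and 6754 in B6 mice on chow. On their brightest probe sets Ddit3, Atf4 and Hspa5 had diet differences of -0.04 to 0.18 across the same arrays, while other probe sets gave 0.49 in Ath29 mice for Atf4, and 0.49 in Ath29 and 0.30 in B6 mice for Hspa5. Plasma and B cell markers, of which 8 of 15 were measured, included Jchain, which read 32.2 in Ath29 and 49.6 in B6 mice on Western diet, and 154 in Ath29 mice on chow, while in B6 mice on chow it was below the floor. Their summed intensity was 4591 in Ath29 and 5211 in B6 mice on Western diet. On chow it was 4974 in Ath29 and 5197 in B6 mice. Most of each sum is Xbp1, itself among the 31 genes, with 2654 in Ath29 and 3063 in B6 mice on Western diet. On chow Xbp1 gave 2588 in Ath29 and 2904 in B6 mice. These sums are therefore no separate measure of plasma and B cells. Heart muscle markers, 14 of 16 measured, summed to 996 in Ath29 and 14711 in B6 mice on Western diet, and 1118 in Ath29 and 1472 in B6 mice on chow. By their brightest probe sets, Canx, Derl2, Dnajb9, Eif2ak3, Ern1, Herpud1, Hspa5, Pdia4, Pdia6 and Xbp1 were also highest in B6 mice on Western diet. The rest of the 30 genes were highest on another array. The part of these 3 cell types in the values above was not tested.

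Probe sets of the same gene are the nearest to a repeat measurement here, but they are not replicates. They can read different parts or forms of a transcript, so their spread is not technical alone. They also share the RNA and the array, so it holds no spread between mice or arrays. Over 4663 genes with several probe sets above the filter, the pooled SD between probe sets of a gene was 0.35 for the strain difference on Western diet, 0.39 for that on chow, 0.34 for the diet difference in Ath29 and 0.35 for that in B6 mice. The median size of a difference over the 30 genes was 0.15 between strains on Western diet, 0.19 between strains on chow, 0.17 between diets in Ath29 mice and 0.18 between diets in B6 mice, beside 0.23, 0.26, 0.20 and 0.25 over all genes. Of 18 genes with several probe sets, the probe sets had 1 sign in 9 for the strain difference on Western diet, 7 for that on chow, 7 for the diet difference in Ath29 and 11 for that in B6 mice. Asns and Calr kept 1 sign between strains on each diet, while Chac1 and Pdia6 had no second probe set above the filter.

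**Figure D5:**
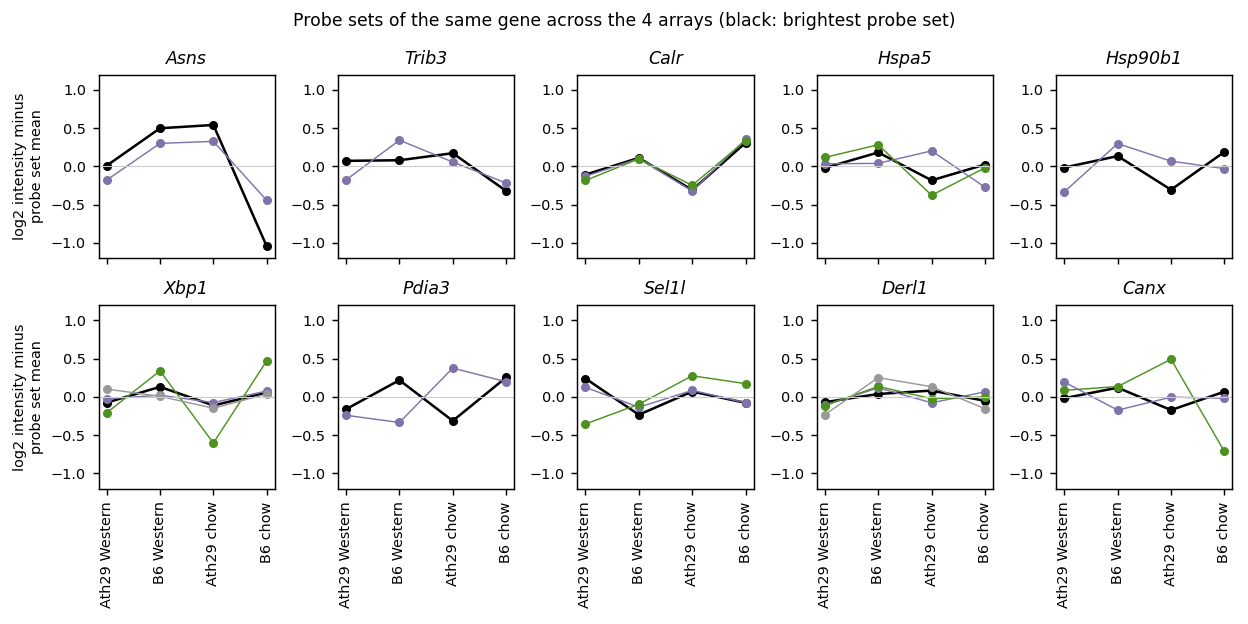
Log2 intensity of each probe set above the filter minus its own mean over the 4 arrays (vertical axis), for 10 genes; lines join the values of 1 probe set and black marks the brightest. The probe sets of Calr run together and both of Asns are lowest in B6 mice on chow, while those of Hsp90b1, Pdia3 and Canx part from each other.

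An additive fit of strain and diet with limma over all 11718 genes counts any strain by diet difference as error and left 1 residual degree of freedom for each gene. It called 0 of the 30 genes for strain and 0 for diet at an adjusted p under 0.05, and 0 for either at an unadjusted p under 0.05, against 2.59% of all genes for strain and 2.48% for diet at the unadjusted level. Pdia6 had the lowest unadjusted p for both effects. Its mean strain difference was -0.59 (95% interval -1.22 to 0.05) with an unadjusted limma p of 0.0638 and an adjusted p of 0.9999. For Hspa5 the mean strain difference was -0.20 (95% interval -0.79 to 0.38) and the mean diet difference 0.16 (95% interval -0.42 to 0.74). For Ddit3 the intervals ran from -0.50 to 0.68 for strain and from -0.48 to 0.69 for diet. A change of 1.5-fold in either gene, 0.58 on the log2 scale, lies inside these intervals for at least 1 direction of each effect.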

How the data were processed

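The authors deposited 1 table of linear intensity values per probe set for 4 arrays. How they were summarised, scaled and background-corrected is not given in the sources used here. Values run from 0.57 to 13421 and array medians from 27.9 to 28.8. Probe sets were named by the platform annotation, with symbols updated by gene ID to RefSeq (GRCm38.p6, 34754 of 34958 single-gene probe sets). In Python 3.11.15 each array was shifted on the log2 scale to a common median, and values below the 25th percentile (9.6) were raised to it. Probe sets with a mean above the median of means (27.4) were kept, and each gene was read from its brightest one. Differences are Ath29 minus B6 and Western minus chow, counted at 1.5-fold and 2-fold. The additive fit used limma 3.58.1 with Benjamini-Hochberg adjustment over all genes, and its script was checked on simulated data. The 31 genes, their branches and all lists were chosen with earlier results of these data known. All 31 genes are named by rule. From other lists, up to 6 genes past 1.5-fold in the same direction in both differences of a kind were to be named. Atf3, Cebpb, Cebpg, Creb3l2, Cyp2e1, Psat1, Edem2, Erp44, Pdia5 and Txndc5, and the motif groups, were chosen after values were seen. With 1 array per group, the number of arrays limits precision. Alternatives changed the scaling, filter, floor, probe set choice and fold.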

Additional observations from a re-analysis of the deposited data

Results flagged for a closer look

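Asns had a strain by diet difference of -2.08 log2 units on its brightest probe set and -1.25 on the other, which has no suffix for shared probes. Its Western diet minus chow difference on the brightest was -0.53 in Ath29 and 1.54 in B6 mice, opposite in sign, with 1 array for each of the 4 levels. The difference between the strains was not tested.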

How the results depend on the processing

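Of 19 medians over the branches and all members, 8 turned in sign under at least 1 alternative, 15 turns in all. Among them, without probe sets ending in _s_at, _x_at or _a_at the PERK median on chow was -0.08 and the strain by diet median of IRE1 was 0.10, while that of PERK was -0.11. The median of all members on Western diet ran from -0.12 to -0.01 (Ath29 minus B6). At the 75th percentile filter the PERK median on chow was 0.49 over 5 genes. Genes past 1.5-fold between diets in Ath29 mice numbered 2, against 1 when arrays were matched at their 75th percentile and 1 with that filter. At 2-fold the counts were 1 of 4 between strains on chow and 0 of 2 between diets in Ath29 mice. Calr on chow ran from -0.63 to -0.55 and Asns on chow from 0.77 to 1.67. The cause was not tested. limma called 0 members for strain and for diet under each setting. No paired analysis was possible because each group has 1 array, so no replicate numbers are shared between groups.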
